A study of Rattus norvegicus with 3 samples.

Results

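The cells labelled EC:aEC are the arterial endothelial cells of the rat thymus data set, taken here as every cell of the stromal library that carries this label. They numbered 90 of 13226 annotated stromal cells (0.680%, exact binomial interval 0.548 to 0.836%), or 90 of 21772 annotated cells in both single-cell libraries. They made up 8.40% (6.80 to 10.2%) of the 1072 cells with an endothelial label, beside 636 capEC, 344 vEC and 2 EC:fetal cells. The files do not spell out these names, and capEC and vEC are read below as the capillary and venous counterparts of aEC. Thymi came from rats of the inbred Lewis strain aged 8 weeks, with no treatment named in the labels. After enzymatic digestion, CD45-negative cells were sorted for 1 stromal library, thymocytes gave a second, and a 10 µm section gave 1 Stereo-seq map. With 1 sample of each kind there is no replicate, so no test between cell types was possible and every value below describes these libraries. Intervals are 95% and cover counting error only.

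Arterial endothelium lines the vessels that bring blood into the thymus under pressure. It is built by Notch signalling, in which Delta-like and Jagged ligands on neighbouring cells switch on Hey repressors, and by SOX17, and it is marked by ephrin B2, by the gap junction proteins connexin 37 and connexin 40, and by elastic fibre proteins. Capillary endothelium exchanges nutrients, and venous endothelium carries the selectins and adhesion molecules through which blood cells leave and enter the organ.

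The genes Gja4, Fbln5 and Tgfb2 are shown by their promoters because their levels set the aEC cells apart from both other vessel types. Gja4 encodes connexin 37, Fbln5 the elastic fibre protein fibulin 5, and Tgfb2 the growth factor TGF-beta 2. Each stretch is the 250 bases before the annotated start in RefSeq's GRCr8 assembly, on the minus strand, at chr5:144920325-144920574, chr6:126742707-126742956 and chr13:100792686-100792935. Capitals mark the letters ACAAT or their reverse complement ATTGT, the core that SOX proteins bind.
Gja4: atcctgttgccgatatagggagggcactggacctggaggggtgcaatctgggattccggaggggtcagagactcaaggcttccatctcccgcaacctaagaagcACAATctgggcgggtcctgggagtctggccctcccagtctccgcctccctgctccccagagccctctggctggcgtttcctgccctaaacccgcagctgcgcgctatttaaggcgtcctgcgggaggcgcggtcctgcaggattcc
Fbln5: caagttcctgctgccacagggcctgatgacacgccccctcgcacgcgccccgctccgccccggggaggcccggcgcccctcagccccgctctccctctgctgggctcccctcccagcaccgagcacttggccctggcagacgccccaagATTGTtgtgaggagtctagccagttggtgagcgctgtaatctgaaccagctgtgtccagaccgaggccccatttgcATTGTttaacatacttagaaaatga
Tgfb2: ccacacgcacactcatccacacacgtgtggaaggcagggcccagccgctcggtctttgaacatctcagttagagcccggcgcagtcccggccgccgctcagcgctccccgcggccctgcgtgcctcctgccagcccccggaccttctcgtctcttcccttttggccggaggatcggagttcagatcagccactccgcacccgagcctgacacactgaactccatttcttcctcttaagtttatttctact
The core was found 1 time in Gja4, 2 times in Fbln5 and 0 times in Tgfb2. Of 33469 promoters of this length, 10049 (30.02%) hold it on either strand, so a match is a description of the letters and not a binding site.

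The 90 cells held 800925 unique molecular identifiers (UMIs, counted RNA molecules), with a median of 7342.5 per cell and a range of 1015 to 27277. The median was 5805.5 in capEC and 9585.5 in vEC. Of the aEC barcodes, 0 of 90 were shared with the thymocyte library, which allows a share of up to 4.02%, while 38 of 16160 stromal barcodes were shared. The authors' first clustering put 61 aEC cells in a cluster named Endo-1 and 29 in Endo-2 (32.2%, 22.8 to 42.9%), against 15.9% of capEC and 17.4% of vEC in Endo-2. The 29 Endo-2 cells were deeper, with a median of 12816 UMIs against 6333 in Endo-1.

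These 29 cells also carried RNA of other cell types. The summed UMIs of 6 mesenchymal genes (Col1a1, Col1a2, Col3a1, Dcn, Lum and Pdgfra) had a median of 138 per Endo-2 cell and reached 1220, against a median of 3 and a maximum of 26 in Endo-1. In capEC and vEC of Endo-2 the medians were 4 and 16. At least 10 UMIs of some other cell type's list were present in 22 of 29 Endo-2 cells, with mesenchymal RNA in 18, mural in 5, epithelial in 4 and lymphatic in 2. In Endo-1 this held for 7 of 61 cells, with mural RNA in 7 and mesenchymal in 3. No aEC cell reached 10 UMIs of the thymocyte, myeloid, B-cell or erythroid lists. The share that fibroblast RNA takes in the all-cell values was not tested. Levels are therefore given for all 90 cells and again for the 61 Endo-1 cells, and in places for the 61 aEC cells with under 10 UMIs of every other list (54 of Endo-1 and 7 of Endo-2). Both divisions were chosen after the data were seen.

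**Figure D1:**
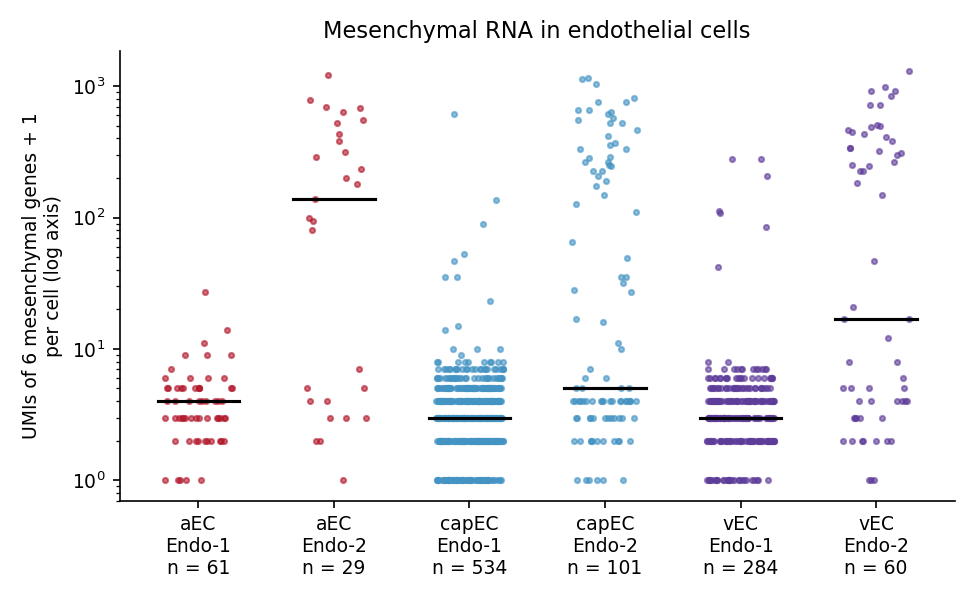
UMIs of 6 mesenchymal genes plus 1 in each endothelial cell (log axis), by label and by the authors' cluster; each point is a cell and each line a median. The aEC cells of Endo-2 have a median of 138 UMIs and those of Endo-1 a median of 3.

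The 3 genes given as marks of these cells were measured first. Levels are the UMIs of a gene over all UMIs of the cell type, scaled to 1e+06 (CPM). Pecam1, the adhesion molecule CD31 found on all endothelium, was present in 90 of 90 cells at 996 CPM, against 1093 in capEC and 1224 in vEC. In the Endo-1 cells it ranged from 1 to 32 UMIs with a median of 7, and its level was 1387 CPM against 1246 and 1361. Pecam1 was therefore high in aEC, capEC and vEC alike and separated none of them by as much as 2-fold.

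Tgfb2 was detected in 47 of 90 aEC cells at 329.6 CPM, against 60.9 in capEC and 25.4 in vEC. The ratios were 5.41 (4.55 to 6.43) and 13.0 (10.2 to 16.6). In Endo-1 the levels were 387, 42.8 and 16.3 CPM, giving ratios of 9.02 (7.198 to 11.3) and 23.8 (17.2 to 33.5). The aEC level of Tgfb2 was above that of every other stromal type of at least 50 cells, the next being capFb at 139 CPM, TMC2 at 114 and TMC1 at 109, and the intervals of TMC2 and TMC1 overlapped.

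Prune2, which encodes a protein with a BCH domain, was detected in 42 of 90 aEC cells at 219.7 CPM. Its level was 49.4 CPM in capEC and 76.6 in vEC, so that vEC and not capEC came second, followed by TEC:mTEC2 at 52.6. The ratios were 4.44 (3.62 to 5.44) and 2.87 (2.36 to 3.48), or 6.27 and 3.84 in Endo-1. Detection followed these levels when each cell was thinned to 2000 UMIs, which left out 3 aEC, 44 capEC and 12 vEC cells. Prune2 then had a UMI in 25.3% of aEC, 7.26% of capEC and 12.05% of vEC cells, against 0.847% of TMC2 mesenchymal cells. The shares before thinning were 46.7%, 19.8%, 42.4% and, at a median depth of 8269.5 UMIs, 3.38% in TMC2. In the 61 aEC cells with under 10 UMIs of every other list, Tgfb2 was at 463 CPM and Prune2 at 347, both above their levels over all cells. Thinned Tgfb2 was found in 27.6%, 6.08% and 4.82% of the endothelial types and in 19.1% of TMC2 cells. Before thinning the shares were 52.2% in aEC and 49.2% in TMC2, which therefore serves as no background for this gene.

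**Figure D2:**
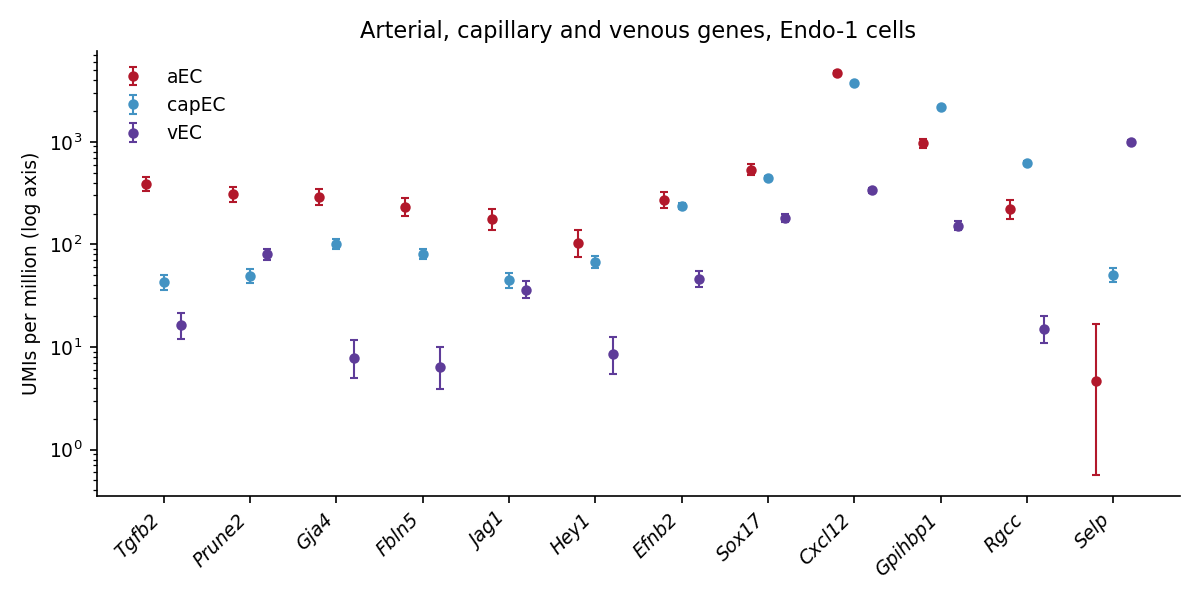
Levels of 12 genes in aEC, capEC and vEC cells of cluster Endo-1, in CPM on a log axis, with exact Poisson intervals as bars. Tgfb2 lies at 387 CPM in aEC against 42.8 in capEC and 16.3 in vEC, and Gja4 at 292 against 101 and 7.79.

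The Notch and arterial genes placed the aEC cells far from vEC and close to capEC. Of the 25 measured genes of an arterial list (at least 20 UMIs in the endothelial types together), 18 were at least 2-fold higher in aEC than in vEC and 0 at least 2-fold lower. Over all 12563 genes measured this way, 10.9% were at least 2-fold higher and 4.76% at least 2-fold lower than in vEC. Against capEC, 6 arterial genes were at least 2-fold higher and 1, Cxcr4, lower, where the background was 7.39% and 2.76%. The list's median ratio was 4.09 to vEC and 1.30 to capEC, while the median of all genes was 1.07 and 1.02. The list holds Prune2 and Tgfb2, and the labels were made from these same cells' genes, so these counts describe the label and are not independent evidence for it.

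Among the gap junction genes, Gja4 had a level of 207 CPM in aEC, 93.7 in capEC and 7.74 in vEC. In the 61 Endo-1 cells Gja4 ranged from 0 to 11 UMIs with a median of 1, and the levels were 292, 101 and 7.79 CPM. The ratio to capEC was 2.89 (2.34 to 3.55) and that to vEC 37.4 (23.9 to 61.2). Gja4 was also present in the label vSMC/PC, smooth muscle cells and pericytes, at 132 CPM. Thinned to 2000 UMIs, 27.6% of aEC, 13.0% of capEC and 0.904% of vEC cells had a Gja4 UMI, against 0.0652% of TMC2 cells (56.7% and 0.195% of aEC and TMC2 cells before thinning). Gja5, which encodes connexin 40, was sparse, with 12 UMIs in 11 aEC cells.

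The ligands of the Notch pathway split in a similar way. Jag1 was at 176 CPM in aEC, 44.5 in capEC and 36.2 in vEC of Endo-1, and Jag2 at 162, 59.9 and 32.2. Both Jagged ligands were therefore at least 2-fold above both other types. Dll4, the Delta-like ligand of arteries and sprouting capillaries, was at 137, 123 and 55.9 CPM, with a ratio to capEC of 1.11 (0.834 to 1.47). Notch4, an endothelial receptor, was at 123, 111 and 33.5 CPM, and the target Hey1 at 104, 67.2 and 8.47. Of the 19 measured Notch pathway genes, 3 were at least 2-fold higher than in capEC and 7 than in vEC over all cells, with 0 at least 2-fold lower in either comparison, where 7.39% and 10.9% of all genes were that much higher. The third gene above capEC, Notch3, is a mural receptor, and in Endo-1 all of its 23 UMIs lay in the 7 cells with mural RNA. Notch3 is on the mural list that picked those cells, so this follows in part from the choice.

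Other arterial genes differed from vEC by far more than from capEC. Ephrin B2 (Efnb2) stood at 271, 236 and 46.1 CPM in aEC, capEC and vEC of Endo-1. Sox17, the transcription factor of arterial fate, stood at 537, 445 and 181, and Unc5b, a netrin receptor, at 74.1, 67.2 and 2.71. Cxcl12, a chemokine that holds progenitor cells, stood at 4695, 3757 and 336 CPM, or 0 to 92 UMIs per aEC cell with a median of 25. For these genes the aEC level lay within 1.25 times that of capEC. Mecom, a transcription factor gene, was at 1185 CPM in aEC against 680.0 and 652, a ratio of 1.74 (1.58 to 1.92) to capEC.

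**Figure D3:**
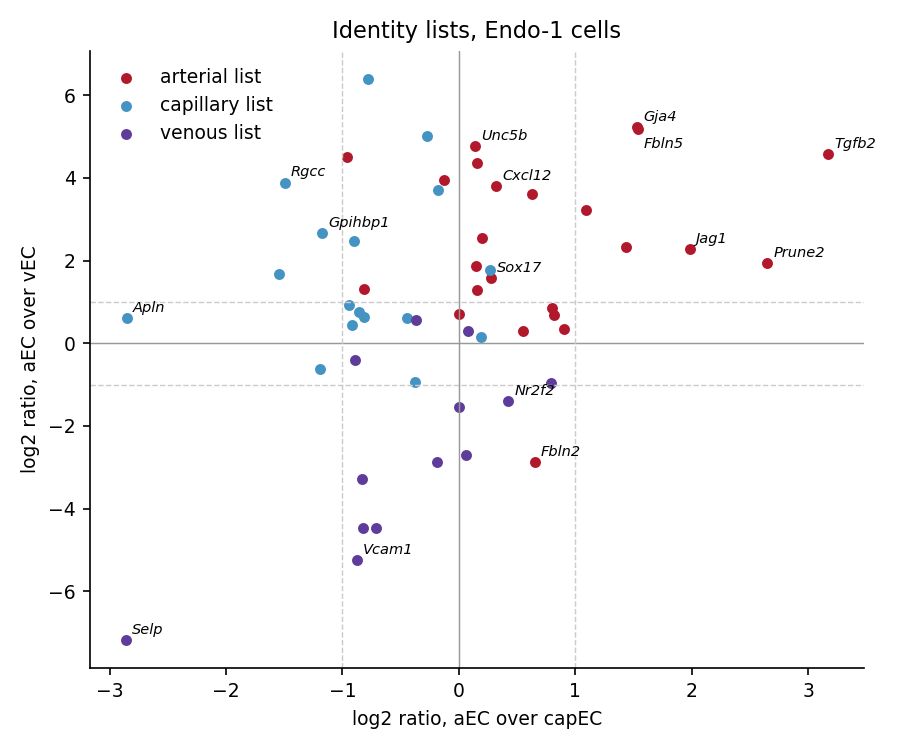
Log2 ratio of aEC to capEC (x) against log2 ratio of aEC to vEC (y) in cluster Endo-1 for the genes of the arterial, capillary and venous lists; dashed lines mark 2-fold. Arterial genes such as Gja4 and Fbln5 lie high and right, venous genes low, and capillary genes to the left.

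The capillary program was present in aEC cells at a lower level. Of 18 capillary genes, 11 were at least 2-fold lower in aEC than in capEC and 0 higher, while 9 were at least 2-fold higher than in vEC and 1, Plvap, lower. Over all genes, 2.76% were that much lower and 7.39% higher than in capEC, and 10.9% higher and 4.76% lower than in vEC. The list's median ratio was 0.459 to capEC and 1.90 to vEC. In Endo-1, 6 were lower than in capEC against a background of 3.23%, and 8 were higher than in vEC against 9.24%. Gpihbp1, which anchors lipoprotein lipase on the capillary wall, was at 969.9 CPM in aEC, 2185 in capEC and 152 in vEC. Rgcc was at 219.9, 619.8 and 14.9 CPM. The butyrophilin-like gene Btnl9 was at 604, 729 and 18.6, so that aEC and capEC were close and vEC low. Car4, the carbonic anhydrase of capillaries, had 7 UMIs in 4 of 90 aEC cells (8.74 CPM) against 171 CPM in capEC. Apln, which encodes the peptide apelin, was at 12.5, 126 and 11.1 CPM over all cells.

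Venous genes, and the selectins and adhesion molecules among the homing genes, were mostly lower in aEC than in vEC. Of 13 venous genes, 8 were at least 2-fold lower than in vEC and 0 higher, with a median ratio of 0.267. The shares over all genes were 4.76% and 10.9%. In Endo-1, 9 of 13 were lower, with a median ratio of 0.153, where 5.53% of all genes were that much lower. Selp, which encodes P-selectin, the receptor on which progenitors enter the thymus, had 2 UMIs in 90 aEC cells (2.50 CPM) against 872 CPM in vEC. Glycam1, a mucin-like ligand of L-selectin, had 3 UMIs (3.75 CPM) against 5190.0 CPM in vEC. It was at 1075 CPM in capEC over all cells and at 2.84 CPM in capEC of Endo-1. Sele, E-selectin, was at 14.98 CPM in aEC and 451 in vEC, and Ackr1, the chemokine carrier of venules, at 19.98 and 421.

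In Endo-1, Vcam1 was at 9.26 CPM in aEC, 17.0 in capEC and 351 in vEC. Von Willebrand factor (Vwf) was at 62.5, 71.2 and 459 CPM. Of 21 leukocyte adhesion and homing genes, 9 were at least 2-fold lower than in vEC and 4 higher over all cells, the latter being Podxl, Ccl25, Cxcl12 and Plpp3, where the shares over all genes were 4.76% and 10.9%. The list's median ratio to vEC was 0.882, beside 1.07 for all genes. Podxl, a sialomucin, was at 542, 413 and 97.9 CPM in Endo-1. Spns2, the transporter that exports sphingosine 1-phosphate, was at 97.2, 112 and 195 CPM.

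Growth factors of the TGF-beta family were led by Tgfb2. Of 30 measured genes of the TGF-beta and BMP pathways, 5 were at least 2-fold higher than in capEC and 0 lower, and the median ratio was 1.12. The shares over all genes were 7.39% and 2.76%. Against vEC 4 were higher and 2 lower, near the shares of 10.9% and 4.76% over all genes. Of 28 measured in Endo-1, 5 were again higher than in capEC, namely Tgfb2, Bmp2, Bmpr1a, Smad3 and Smad9, against a background of 5.33%. Bmp2 rested on 7 UMIs in 5 Endo-1 cells (16.2 CPM, against 2.27 in capEC and 3.39 in vEC). Smad9, a signal carrier of BMP receptors, rested on 5 UMIs. Of the platelet-derived factors, which draw mural cells to vessels, Pdgfd was at 463, 199 and 87.7 CPM and Pdgfb at 129.6, 111 and 26.4.

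The counts of elastic and basement membrane genes depended on which cells were used. Over all 90 cells, 10 of 28 were at least 2-fold higher than in capEC and 0 lower, with a median ratio of 1.59, where 7.39% and 2.76% of all genes were so. In Endo-1, 5 of 26 were higher (Fbln5, Loxl2, Mgp, Fn1 and Col8a1) and 2 lower (Lamb1 and Nid2), with a median of 1.11, where the shares over all genes were 5.33% and 3.23%. Fbln5 was at 234 CPM in aEC, 80.6 in capEC and 6.44 in vEC of Endo-1, with ratios of 2.90 (2.29 to 3.65) and 36.3 (22.1 to 62.8). Fibronectin (Fn1) was at 356, 135 and 54.9 CPM, and Mgp, an inhibitor of calcification, at 875, 294 and 282. These kept the direction they had over all cells.

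Other matrix genes lost it. Fibrillin 1 (Fbn1), the microfibril protein, was at 1177 CPM over all aEC cells, 275 in capEC and 517 in vEC, but at 222, 184 and 241 in Endo-1. Its ratio to vEC went from 2.28 to 0.922 (0.737 to 1.14). Col1a1, a fibroblast collagen, went from a ratio of 3.19 to capEC over all cells to 0.633 (0.369 to 1.02) in Endo-1, and Dcn, decorin, from 1.69 to 0.603 (0.463 to 0.773). Elastin itself (Eln) was lower in aEC than in vEC, at 76.4 against 203 CPM in Endo-1, and at 54.5 in capEC. Fbln2 was also lower than in vEC there, at 23.1 against 169.

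Of the 8 genes of a mesenchymal list, Pi16 was the one at least 2-fold above capEC and vEC in Endo-1. It encodes a peptidase inhibitor of adventitial and capsular fibroblasts, and the list of flow-responsive endothelial genes also holds it. Over all cells Pi16 was at 985 CPM in aEC, 86.1 in capEC and 279.8 in vEC, and in Endo-1 at 144, 17.6 and 20.3. Its level in the capFb label was 4894 CPM. In Endo-1 it lay in 15 of 61 cells, with at most 10 UMIs in a cell, and its ratio to capEC was 8.16 (5.65 to 11.8). Summed over all 61 Endo-1 cells, Dcn and Col1a1 were at 0.603 and 0.633 times the capEC level, the latter with an interval that included equality. Their levels in the 15 cells alone were not measured. Of the 28 Endo-1 cells with a Tgfb2 UMI, 13 had a Pi16 UMI, against 2 of the 33 without, and the 7 Endo-1 cells with mural RNA held 0 UMIs of it.

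The 20 genes with the largest ratio to the higher of capEC and vEC were Tgfb2, Cacna1c, Aif1l, Amd1, Adam22, S100a4, Arhgap6, Nebl, Sox5, Cox4i2, Tmem100, Cd74, Pi16, Fam110b, Col5a1, Zeb2, Fn1, Col8a1, Arhgap24 and Meis1. In Endo-1, 19 of 20 were at least 2-fold above both other types, and 8 were again among the leading genes. Nebl, which encodes the actin-binding protein nebulette, was at 303, 53.0 and 31.8 CPM in Endo-1. Aif1l, a calcium-binding actin regulator, was at 102 and 16.7 CPM in aEC and capEC, and Tmem100, a target of BMP signalling in arteries, at 83.3 and 17.6. Amd1, an enzyme of polyamine synthesis, was at 333, 61.6 and 31.5 CPM. Azin1, which raises polyamine synthesis by holding back antizyme, was at 409.7, 209 and 64.7, and glutamine synthetase (Glul) at 542, 245 and 79.6.

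Some of these leaders lay in few cells. In Endo-1, 36 of the 41 UMIs of Cox4i2, a subunit of cytochrome oxidase found in pericytes, were in the 7 cells with mural RNA, and 7 of the 12 UMIs of Adam22 were in 1 cell. In the 61 aEC cells with under 10 UMIs of every other list, the calcium channel gene Cacna1c was at 2.63 CPM, against 125 over all aEC cells. Sox5 was likewise at 2.63 CPM there, against 147 over all. Cd74, the invariant chain of class II antigen presentation, was with RT1-Da, RT1-Db1, RT1-Ba and RT1-Bb one of 5 class II genes at least 2-fold above both other types. In Endo-1, 1 cell held 242 of the 266 UMIs of these 5 genes and the next cell 3. Against all genes, 734 of 11558 (6.35%) were at least 2-fold higher in aEC than in capEC and 347 (3%) at least 2-fold lower, and 1023 of 11156 (9.17%) and 598 (5.36%) against vEC. With each cell thinned to 2000 UMIs the counts were 470 higher and 333 lower against capEC, and 464 higher and 492 lower against vEC. The number of genes reaching the minimum after thinning is not given. With no minimum of UMIs, 1095 and 1538 genes were higher than in capEC and vEC, while the lower counts stayed at 347 and 598. The aEC cells had the fewest UMIs in total and a floor of 3. Genes near the minimum could thus be called higher but not lower, so higher and lower counts are not set against each other. In Endo-1 the shares were 4.82% and 3.58% against capEC, and 7.99% and 6.34% against vEC.

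The 12 genes lowest against both other types were Prrg2, Meox1, Gnl3, Ap3m1, Gmfg, Prkrip1, Rab4a, Abhd14b, Ptpre, Angpt2, Trappc1 and Akr1c15. Meox1, a homeobox transcription factor, was at 32.4 CPM in aEC, 75.2 in capEC and 129 in vEC of Endo-1. Tcf15, which forms a pair with MEOX2 in capillary endothelium, was at 153, 285 and 27.4. Of 26 endothelial transcription factors, Meox1 was the one at least 2-fold lower than in capEC in Endo-1, and 0 were higher, where 3.23% and 5.33% of all genes were so. Against vEC, 6 were higher (Sox17, Gata2, Tcf15, Klf2, Epas1 and Hey1) and 2 lower (Nr2f2 and Meox1), where the shares over all genes were 9.24% and 5.53%. The counts of lower factors are near these shares. Epas1, the hypoxia factor HIF-2 alpha, was at 1088, 730.2 and 421 CPM, and Klf2, which responds to blood flow, at 1375, 1744 and 684.

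Set against every other stromal type of at least 50 cells, few genes were highest in aEC by a wide margin. Over all cells, 2 of 6634 genes (0.0301%) were at least 3-fold above the next type, Pllp (plasmolipin) and LOC108349468, with 22 and 26 UMIs in aEC. They fall outside the rule for named genes and were chosen after their values were seen. With aEC cells of Endo-1 set against all cells of each other type, it was 1 of 4247 genes (0.0235%), Prune2. Its level was 4.02 times that of all vEC cells, and 3.84 times that of vEC in Endo-1. Over all cells the 10 leading genes were Prune2 (2.87 times the next type), Tgfb2 (2.38), Bpnt1 (2.21), Amd1 (2.09), Mrps26, P2ry2, Tm4sf1, Cep19, Glul and Nherf2. For 5 of these 10 the next type was capEC.

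The aEC cells were not alike in their arterial genes. The UMIs of 11 arterial genes (Prune2, Tgfb2, Gja4, Gja5, Hey1, Dll4, Efnb2, Sox17, Bmx, Sema3g and Fbln5) were summed in Endo-1 cells thinned to 2000 UMIs. The sum ranged from 0 to 21 in 61 aEC cells with a median of 4, and 9 cells were at 0. In 517 capEC cells the median was 2 and the highest 15, and in 284 vEC cells 1 and 9. At least 7 UMIs were found in 22 of 61 aEC cells (36.1%, 24.2 to 49.4%), 44 of 517 capEC cells (8.51%) and 2 of 284 vEC cells (0.704%). The ranges overlapped, and 28 of 61 aEC cells lay at or below the capEC median.

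**Figure D4:**
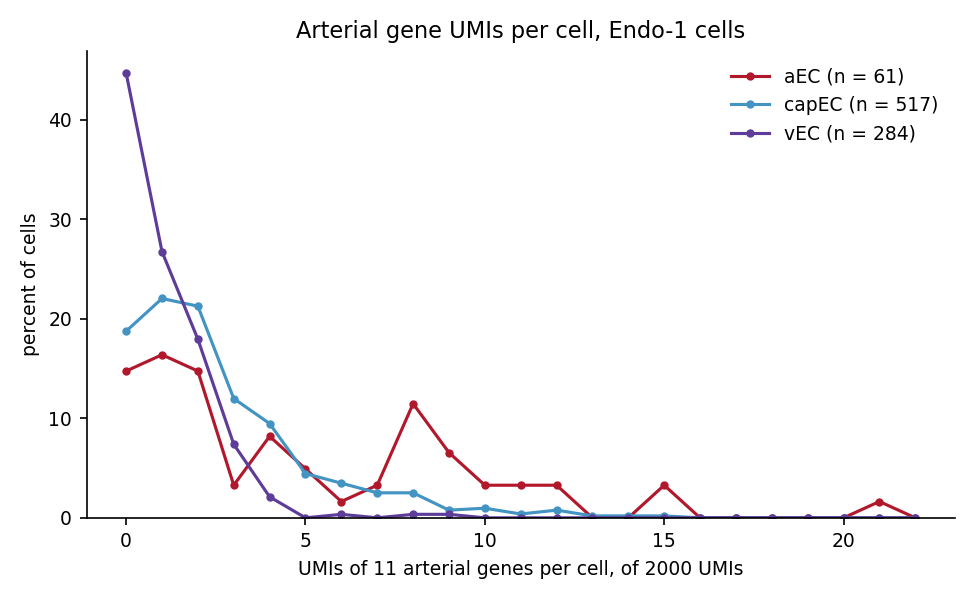
Percent of Endo-1 cells (y) by the UMIs of 11 arterial genes among 2000 UMIs per cell (x), for 61 aEC, 517 capEC and 284 vEC cells. The aEC cells reach 21 UMIs and 9 of them are at 0; capEC cells have a median of 2 and vEC cells of 1.

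Genes were found together in part of the Endo-1 cells. Of the 28 with a Tgfb2 UMI, 25 had Gja4, against 14 of the 33 without. Nebl was in 22 against 5 cells, Alox12, a lipoxygenase gene, in 12 against 1, and Glul in 26 against 16. The capillary gene Gpihbp1 ran the other way, in 11 against 24 cells, as did Mgp, in 17 against 27. The 2 sets of cells had median depths of 6262 and 6383 UMIs, and Pecam1 was in all 28 and all 33. This division by a measured gene is a description of how the genes lie in these cells.

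A smaller set of Endo-1 cells held mural RNA. In the 7 cells with at least 10 mural UMIs, Rgs5, a pericyte gene, and Notch3 were present in 7 of 7, and Kcnj8, a pericyte potassium channel, in 6. Myh11, the smooth muscle myosin, had 76 UMIs in 2 of them. The 10 mural genes summed were Acta2, Tagln, Myh11, Cnn1, Des, Notch3, Rgs5, Pdgfrb, Cspg4 and Kcnj8. Rgs5, Notch3, Kcnj8 and Myh11 are thus among the genes that picked these cells, and their presence follows in part from that choice. Tgfb2 was in 1 of the 7, and Pecam1 in 7. The median depth of the 7 cells was 9314 UMIs, against 6260.5 in the other 54. The part of joined or doubled cells in these values was not tested, and no doublet caller was run.

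The section placed the label differently from its share among dissociated cells. The map gives each 10 µm bin up to 3 cell types with weights from a decomposition against the single-cell reference. The first label was aEC in 280 of 592087 labelled bins, which was 28.9% (26.0 to 31.8%) of the 970 endothelial first labels, where the dissociated cells gave 8.40%. A share of bins and a share of sorted cells have different denominators, so no direction is read from this pair. The aEC bins had a median first weight of 0.428 and a median of 343 UMIs, 154 of 280 (55.0%) were marked confident by the authors, and 10 had 1 label. Their second label was DP in 85 bins and DN in 71, both thymocyte names. The reference cells included the aEC cells with mesenchymal or mural RNA, and the part of that RNA in the placement of the label was not tested.

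In the section, aEC bins gathered at the capsule. The capsular area, which reaches 50 µm from the drawn capsule, held 188 of the 280 bins, or 0.152% of its 123373 labelled bins, against 54 of 409180 (0.0132%) in the cortex. The ratio was 11.5 (8.49 to 15.9), where it was 3.81 (2.80 to 5.19) for capEC, 2.54 (2.01 to 3.20) for vEC and 5.27 (4.16 to 6.70) for vSMC_PC. The areas named mECA and mEFA held 23 of 40180 bins (0.0572%) and 15 of 19354 (0.0775%). The ratio of mECA to cortex was 4.34 (2.54 to 7.19) for aEC and 4.92 for vEC. Between mEFA and mECA it was 1.35 (0.657 to 2.71) for aEC and 2.37 (1.75 to 3.22) for vEC. Neighbouring bins are not independent, so these intervals are too narrow. The capsular ratio of aEC came to 2.12 when any of a bin's labels counted and to 4.23 in segmented cells. In segmented cells the aEC share was 0.131% (0.111 to 0.154%) in the capsular area and 0.130% (0.0874 to 0.185%) in mEFA. It was 0.0992% (0.0734 to 0.131%) in mECA and 0.0309% in the cortex. There the label was thus about as frequent in mEFA as in the capsular area.

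Within the capsule as drawn, 141 of 280 aEC bins (50.4%, 44.3 to 56.4%) were found, against 23.2% of capEC, 20.5% of vEC, 38.2% of vSMC_PC and 2.67% of all labelled bins. The capsular fibroblast label capFb had 86.3% of its bins there. The median distance to the capsule was 0 µm for aEC, 80.0 for capEC, 270.2 for vEC and 175 for all bins. Median depth in the capsular area was 297.5 UMIs in aEC bins and 314 in all its bins.

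**Figure D5:**
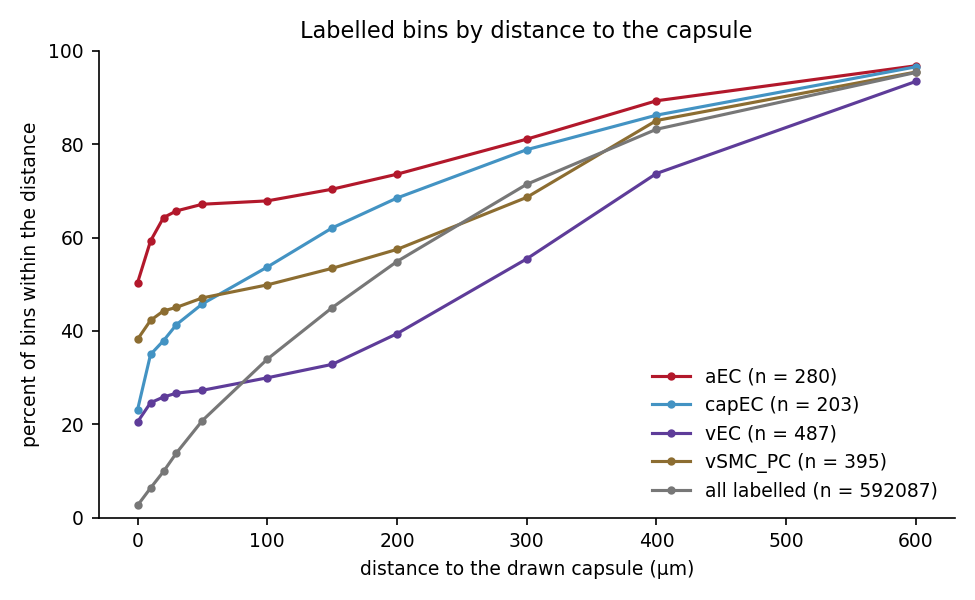
Percent of bins of each label (y) within a given distance in µm of the drawn capsule (x), for 280 aEC, 203 capEC, 487 vEC, 395 vSMC_PC and all 592087 labelled bins. The aEC line starts at 50.4% and reaches 64.3% by 20 µm, against 9.92% for all bins.

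Smooth muscle labels lay close to aEC bins. Within 30 µm of aEC bins, 106 of 6195 labelled bins (1.71%) were vSMC_PC, against 0.0667% of the section, a ratio of 25.6 (20.5 to 31.8). Around capEC the ratio was 17.9 and around vEC 11.5. Within the capsular area alone it was 13.8 (10.4 to 18.03) around aEC, 15.9 (11.4 to 21.9) around capEC and 9.77 (6.76 to 13.8) around vEC, so that there aEC did not lie above capEC. Outside that area it was 26.2 (17.0 to 39.0), 7.27 (3.28 to 14.1) and 11.6 (7.97 to 16.4). With any of a bin's labels counted the aEC ratio came to 2.62, in segmented cells to 11.5 and within 60 µm to 10.3. A vSMC_PC bin lay within 30 µm of 96 of 280 aEC bins (34.3%), 25.6% of capEC, 20.7% of vEC and 1.56% of all bins. The median distance to the nearest was 58.3 µm for aEC, 132 for capEC, 121 for vEC and 241 for all. At least 10 mural UMIs were held by 12 of 90 aEC cells, 18 of 636 capEC and 10 of 344 vEC cells of the stromal library. The part of that RNA in these ratios was not tested.

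Other stromal labels were also frequent around aEC bins. The ratio was 18.8 (13.1 to 26.5) for capEC, 11.4 (8.51 to 14.96) for vEC, 22.5 (10.9 to 42.7) for capFb and 34.4 (21.3 to 54.0) for TMC1. TMC2 stood at 36.1 (19.4 to 64.3), TMC3 at 13.6 and TMC4 at 6.14. Around capEC and vEC the ratios were 14.3 and 6.87 for capFb, 24.3 and 10.1 for TMC1, and 6.35 and 10.1 for TMC4. Within the capsular area those of capFb and TMC1 around aEC came to 7.88 (3.82 to 15.01) and 12.7 (7.81 to 20.002), beside 12.9 for TMC1 around capEC. Outside it 0 bins of either label lay near aEC. DN thymocytes were less frequent than in the section, at 29.3% against 43.8%. This held around the other endothelial labels too, at 30.5% for capEC and 26.5% for vEC. Mature single-positive labels were at 7.28% against 4.64%, a ratio of 1.57 around aEC and 3.06 around vEC. This pair depended on the region. The ratios were 1.67 (1.33 to 2.06) and 1.82 (1.42 to 2.31) within the capsular area, and 2.71 and 3.39 outside it. Within mECA and mEFA together they were 1.08 (0.946 to 1.22) and 1.20 (1.12 to 1.28). The 280 bins fell into 210 separate pieces, of which 171 were single bins, 14 had at least 3 bins and the largest had 12.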

How the data were processed

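The stromal matrix was deposited by the authors as raw UMI counts per gene and barcode, from Cell Ranger 8.0.0 and Seurat 5.3.0 with the mRatBN7.2 assembly, per the submitters' processing notes. The gene annotation is not given in the sources used here. Cell labels, the percent of mitochondrial counts and the fraction weights of the section's decomposition were used as the authors deposited them. Label names were read from the projected label, or the initial cluster where that was empty. The thymocyte matrix served only to compare barcodes. With 1 sample per group, counts were summed per label and divided by the label's total per 1e+06 UMIs, and no test, SD or p-value was computed.

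Genes with at least 20 UMIs in the endothelial types together were measured (at least 20 in the types compared for counts over all genes, or in aEC for comparison with every type), and 2-fold was the threshold. A level under 3 UMIs was set to 3 UMIs in a ratio. Ratios have exact conditional binomial intervals, shares exact Clopper-Pearson and levels exact Poisson intervals, at 95%. Thinning drew 2000 UMIs per cell without replacement (seed 7). No cell was removed and no doublet caller was run. Of 329 list genes, 328 are in the file. The text names list members, the 20 genes highest and 12 lowest against both other types (at least 50 UMIs together, a UMI in 20% of cells) and the 10 highest against every stromal type of at least 50 cells, over all cells and in Endo-1. The members and lists were chosen with earlier results of these data known. Alternatives were the cells used, depth, level, total, minimum, fold, bin label, bin table and radius. The software was matplotlib 3.10.9, pandas 2.3.3, SciPy 1.17.1 and NumPy 2.4.6 under Python 3.11.15, and the scripts were tested on simulated data.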

Additional observations from a re-analysis of the deposited data

Results flagged for a closer look

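The stromal matrix holds 2934 barcodes to which the authors gave no annotation. The 3 genes given as marks of the aEC cells, which other stromal types also express, were found in them too. Pecam1 was at 53.4 CPM in these barcodes, against 89.1 in all annotated stromal cells, with a UMI in 142 barcodes. Tgfb2 was at 33.2 CPM against 76.9, in 150 barcodes. Prune2 was at 14.0 CPM against 11.3, in 70 barcodes. All 3 values lie above 0.346 CPM, the level of 3 UMIs in their total of 8663291, and none of these barcodes entered a comparison above.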

How the results depend on the processing

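Capillary and venous counterparts were recounted in the same way in each alternative. The 734 genes at least 2-fold higher than in capEC became 445 with at most 2 mural and mesenchymal UMIs per cell (30 aEC cells), 413 with under 10 UMIs of each other list (61 cells, an alternative added after seeing the data), 470 after thinning and 249 at 3-fold. The 1023 higher than in vEC became 464 after thinning (with 492 lower), 1538 with no minimum and 421 at 3-fold. At 3-fold, 67 were lower than in capEC and 219 than in vEC. The 2 genes highest in aEC among types became 6 with at most 2 mural and mesenchymal UMIs, 1 in Endo-1 and 5 with under 10 UMIs of each other list. The share of endothelial cells stayed between 6.93% and 8.53%.

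Ratios whose interval over all cells excluded 1 and that then crossed 1 were those of Col1a1 to capEC at 0.807 with at most 2 mural and mesenchymal UMIs, 0.633 in Endo-1 and 0.886 with under 10 UMIs of each other list, and to vEC 0.634 in Endo-1. Dcn came to 0.603 and 0.632 in Endo-1. In the order of those alternatives, Fbn1 to vEC was 0.806, 0.922 and 0.979, Pecam1 to capEC 1.25, 1.11 and 1.18, and Pecam1 to vEC 1.18, 1.02 and 1.07. Pecam1 and Plvap to capEC were 1.00 and 1.06 by the mean of the cells' CPM. Nr2f2 to capEC was 0.596 and 0.861 with few mural and mesenchymal or few other UMIs. Vcam1 to capEC was 0.544 in Endo-1 and 0.759 with few other UMIs, where Arhgap6 and Cacna1c to vEC were 0.803 and 0.697. Col1a1 is on the mesenchymal list that limited the cells with few mural and mesenchymal or few other UMIs. Its fall among those cells therefore follows in part from the filter. The cause of the crossings was not tested. Named genes' ratios that left their interval without crossing 1 numbered 95 of 211 in Endo-1, 111 of 185 with at most 2 mural and mesenchymal UMIs, 95 of 198 with under 10 of each other list, 91 of 207 after thinning and 50 of 215 by the mean of the cells' CPM.

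The capsular ratio of 11.5 became 2.12 with any label counted, 32.1 in bins of 1 type, 4.89 at or above the median UMIs, 4.23 in cell bins and 2.88 by sums of weights. The vSMC_PC ratio of 25.6 became 2.62, 987 (1 bin near), 14.5 and 11.5 in the first 4 of these, 41.8 for confident labels, 50.3 within 15 µm, 10.3 within 60 µm and 13.8 within the capsular area. No paired analysis was possible because there is 1 sample per group. The initial clusters name no endothelial subtype, so that alternative was not run. With 90 cells and 280 bins, counting limits genes of a few UMIs, and depth per bin limits the labels.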

Other observations

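Avp, the vasopressin gene, had 33 UMIs in 17 of 90 aEC cells, at 41.2 CPM against 7.19 in capEC and 0.829 in vEC, and at 57.9, 7.66 and 1.02 CPM in Endo-1. Mrps26, a mitochondrial ribosome gene that lies near Avp in the RefSeq table with Oxt between them, was at 287, 109 and 39.3 CPM in Endo-1. Of the 28 Endo-1 cells with Tgfb2, 10 had an Avp UMI, against 3 of the 33 without. Alox12 was at 53.2 and 9.36 CPM in aEC and capEC of Endo-1, with 23 UMIs in 13 cells. P2ry2, a nucleotide receptor of endothelium, was at 141, 65.5 and 9.82 CPM, and Nherf2, a scaffold protein gene, at 1099.6, 549 and 104. Edn1, which encodes the vasoconstrictor endothelin 1, rested on 12 UMIs in 3 Endo-1 cells, at 27.8 CPM against 8.51 and 7.45. Of 12 immediate early and heat-shock genes measured over all cells, 0 were at least 2-fold higher or lower than in capEC. The shares over all genes were 7.39% and 2.76%. Against vEC 1 of the 12, Atf3, was at least 2-fold lower. Of 9 cell cycle genes, 2 had too few UMIs for a ratio to capEC and 5 for one to vEC. The others lay within 2-fold of capEC, and 1, Mki67, was at least 2-fold higher than in vEC.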
